A study of Saccharomyces cerevisiae with 25 samples.

Results

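The genes described here are 10 genes that budding yeast (Saccharomyces cerevisiae) uses to take up iron from outside the cell: FRE1, FRE2, FET3, FTR1, SIT1, ARN1, ARN2, FIT1, FIT2 and FIT3. They were chosen by name, as known targets of the transcription factor Aft1, from 6650 named genes in the deposited matrix. The rule that names them uses no measured value, but the choice was made with earlier results of these data known. All libraries came from cells labelled with the strain background BY4741 and the genotype delta-vip1, which is the deletion of an inositol pyrophosphate kinase gene, together with pho84pr-YFP, a fluorescent reporter under the promoter of the phosphate transporter gene PHO84. High-phosphate medium gave the 0 min library, and 24 more were made at steps of 15 min over 6 hours after a wash and a move to medium with no phosphate. No library of a strain with intact VIP1 was analysed here, so the values describe the labelled deletion strain alone. Libraries without phosphate were read in windows of 8 each, early (15 to 120 min), middle (135 to 240 min) and late (255 to 360 min).

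In this yeast, Aft1 moves into the nucleus when iron is scarce and switches on the high-affinity uptake genes. Ferrireductases of the FRE family turn ferric into ferrous iron at the cell surface, and the ferrous iron is then taken in by a complex of the multicopper oxidase Fet3 and the permease Ftr1. Iron bound to siderophores, which are small chelators made by other microbes, is taken in by transporters such as Sit1, Arn1 and Arn2, and the Fit mannoproteins help to hold siderophore iron in the cell wall.

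The Aft1 core, written as TGCACCC and read on both strands, was looked for in the 600 bases before each start codon in the RefSeq genome of build R64, and 9 of the 10 genes held it. Among 6005 genes searched in the same way, 161 did (2.68%). The letters were defined in other work on genes of this kind, so the match describes the set and does not test it. These stretches are shown because they hold the letters by which the set is known. Coding sequences were not compared. Each is written 5′ to 3′ on the strand of its gene with 10 flanking bases, and capitals mark the core, which appears as GGGTGCA where it lies on the other strand.
FRE2, minus strand, chrXI:11640-11666: tattcgtaatTGCACCCaggtcttttt
FET3, plus strand, chrXIII:388561-388587: tcttcaaaagTGCACCCatttgcaggt
FTR1, minus strand, chrV:462089-462115: ttccaggccaGGGTGCAgaaatactat
FTR1, minus strand, chrV:461899-461925: cgtagatgaaTGCACCCgatttctaag
SIT1, plus strand, chrV:27459-27485: acacatttgaGGGTGCAatctggttcg
ARN1, minus strand, chrVIII:21215-21241: tttatcaaaaTGCACCCataaaagcag
ARN2, minus strand, chrVIII:10644-10670: atcagaaaatGGGTGCAgttcttagtt
FIT1, minus strand, chrIV:1505066-1505194: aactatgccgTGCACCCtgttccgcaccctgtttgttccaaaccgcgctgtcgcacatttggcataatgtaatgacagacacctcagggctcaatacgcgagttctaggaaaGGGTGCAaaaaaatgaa
FIT2, plus strand, chrXV:1059190-1059298: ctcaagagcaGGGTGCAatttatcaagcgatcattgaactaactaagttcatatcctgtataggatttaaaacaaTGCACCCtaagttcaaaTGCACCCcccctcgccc
FIT2, plus strand, chrXV:1059390-1059416: gaatctaactGGGTGCAgtataattag
FIT3, minus strand, chrXV:1061223-1061350: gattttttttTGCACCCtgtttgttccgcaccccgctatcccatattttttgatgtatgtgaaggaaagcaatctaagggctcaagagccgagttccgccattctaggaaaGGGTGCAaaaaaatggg

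FIT2 held 4 copies of the core, FTR1, FIT1 and FIT3 held 2 each, and the other 5 genes with a match held 1. FIT1 and FIT3 carried their copies at nearly the same places. In FIT1 they began at -284 and -182 from the start codon, and in FIT3 at -285 and -184, with the first copy on the gene's strand and the second on the other. FRE1 was the gene with no match in the window, and forms of the site other than TGCACCC and GCACCC were not looked for. In the 250 bases nearest the start codon 5 of the 10 genes held the core, against 68 of 6005 genes (1.13%). The shorter core GCACCC, which every TGCACCC contains, was present before 9 of the 10 genes and before 9.31% of all genes.

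**Figure D1:**
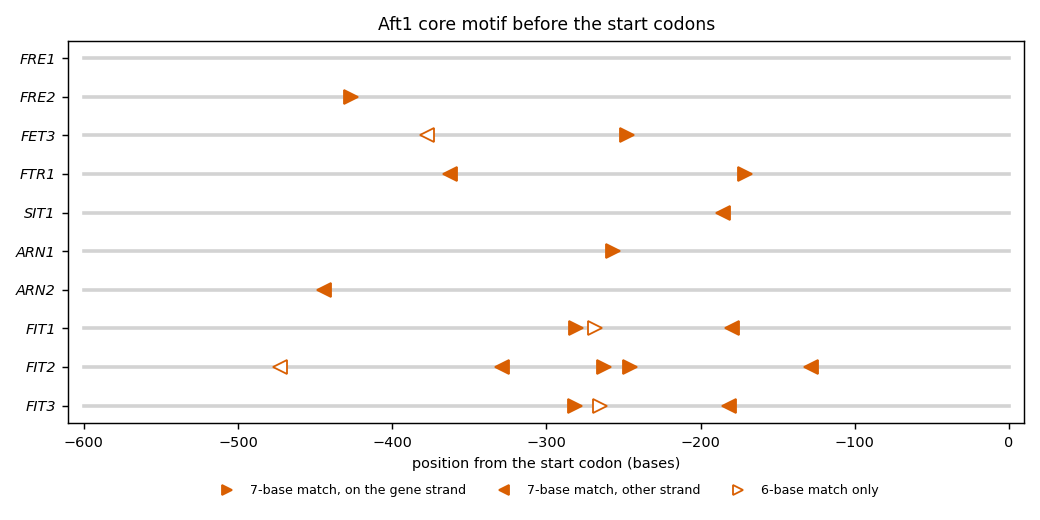
Positions of the Aft1 core in the 600 bases before each start codon, counted in bases from the start codon on the x axis. Filled arrowheads mark TGCACCC on the gene's strand (right) or the other strand (left), and open ones mark GCACCC alone. FIT2 has 4 filled marks, FRE1 has none, and the marks of FIT1 and FIT3 nearly coincide.

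Levels are given in RPM, a gene's reads for each 1000000 reads in that library. The libraries held 413033 to 4162690 reads, as recovered from the spacing of the deposited values, and the shallowest were those at 345 min (413033 reads) and 210 min (678064 reads). Genes with fewer than 10 reads in a library are blank there. VIP1 itself had a value in each of the 25 libraries, 9.69 to 55.7 RPM, and the libraries are therefore described as labelled. Of 4 genes disabled in BY4741, HIS3, LEU2 and MET17 were listed in 0 libraries. URA3 was listed in 8, at 4.13 to 10.3 RPM, which overlaps the low end of VIP1. How much of the VIP1 locus was lost was not tested. BY4741 is of mating type a, and the a-cell genes MFA1 (796 to 2522 RPM) and STE2 (401 to 561 RPM) were listed throughout. Of 4 alpha-cell genes, MFALPHA2 was listed in 0 libraries and MFALPHA1 in 10, at up to 14.8 RPM. The other alpha-cell genes were listed in most libraries, STE3 in 25 at 18.7 to 54.6 RPM and SAG1 in 23 at 8.25 to 28.7 RPM. Genes for cytosolic ribosomal proteins took 33.8% of reads at 0 min, but 4.55% to 5.39% late, so the share left for other genes grew, and the median gene stood 0.41 higher on the log2 scale in the late window than at 0 min.

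Each time point was a single library of what the labels give as a single time course. The error is therefore the scatter of libraries around a fitted curve, and p-values measure that scatter, not the spread between cultures. A call needed an adjusted p under 0.05 from limma, adjusted by Benjamini-Hochberg over all genes tested, and a log2 change of at least 1. RPM is a share of the RNA of the whole culture, so fewer cells with a transcript and less of it in every cell cannot be told apart.

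Divided by coding length, the levels at 0 min spanned a wide range. FTR1 led with 341 RPM per kb (95% interval 318 to 365, exact Poisson, counting error only), followed by FET3 with 185 (172 to 199). FIT2 with 89.1 (70.7 to 111) and SIT1 with 81.3 (72.4 to 91.0) came next, and their intervals overlapped. FRE1 with 40.7 RPM per kb (34.7 to 47.4) and FIT3 with 34.7 (25.0 to 46.9) overlapped as well. ARN2 with 8.73, ARN1 with 8.63 and FRE2 with 4.99 RPM per kb formed the low end, where the intervals of neighbours overlapped, and FIT1 was blank, which places it under 3.20 RPM per kb. By the late window the order of the lower genes had changed, with geometric means of 61.4 RPM per kb for FIT3, 41.6 for SIT1 and 6.79 for FRE1. FTR1 (197), FET3 (92.9) and FIT2 (83.5) still held the highest 3 values per kb.

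**Figure D2:**
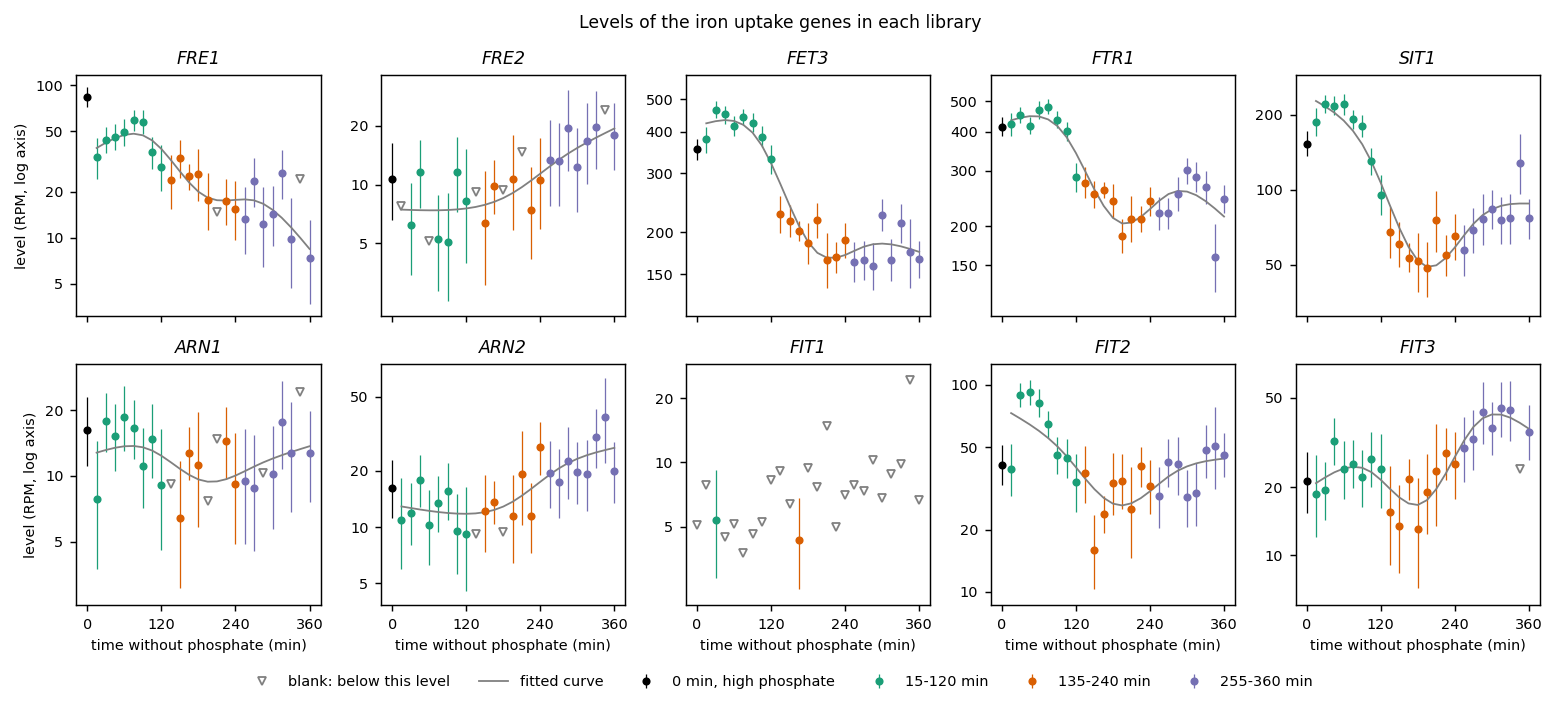
RPM on a log axis, with its own range in each panel, against minutes without phosphate for the 10 genes, 1 point per library, with 95% counting intervals and the fitted curve. Open triangles mark blank values at the level of 10 reads. FET3 and FTR1 stay high until about 105 min and then step down, and SIT1 falls from 60 to 195 min. FRE1 declines, and FRE2, ARN2 and FIT3 have their highest points in the late window.

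No gene of the set passed the test on its mean over the early window. Against high phosphate 0 of the 9 tested genes were called by limma, where 0.115% of all genes were (0.0765% higher and 0.0382% lower), and 1 gene, FRE1, had an unadjusted p under 0.05. In the middle window 2 genes, FRE1 and SIT1, were lower and 0 higher, against a background of 10.8% called in either direction, 6.33% higher and 4.46% lower. In the late window FRE1 alone was called, lower, against 28.0% of all genes in either direction, 6.85% lower and 21.1% higher. Between the early and the late window 3 genes fell (FRE1, FET3 and SIT1) and 1 rose (FRE2), against 25.9% of all genes called, 4.66% lower and 21.2% higher. A change over time without phosphate, which asks for a fitted range of at least 1, was called for 8 of the 9 genes and for 42.0% of all genes, and ARN1 was the gene that did not pass. The median log2 change of the 9 genes was 0.01 early, -0.69 in the middle and -0.43 late, where the medians of all genes were -0.07, 0.17 and 0.41.

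**Figure D3:**
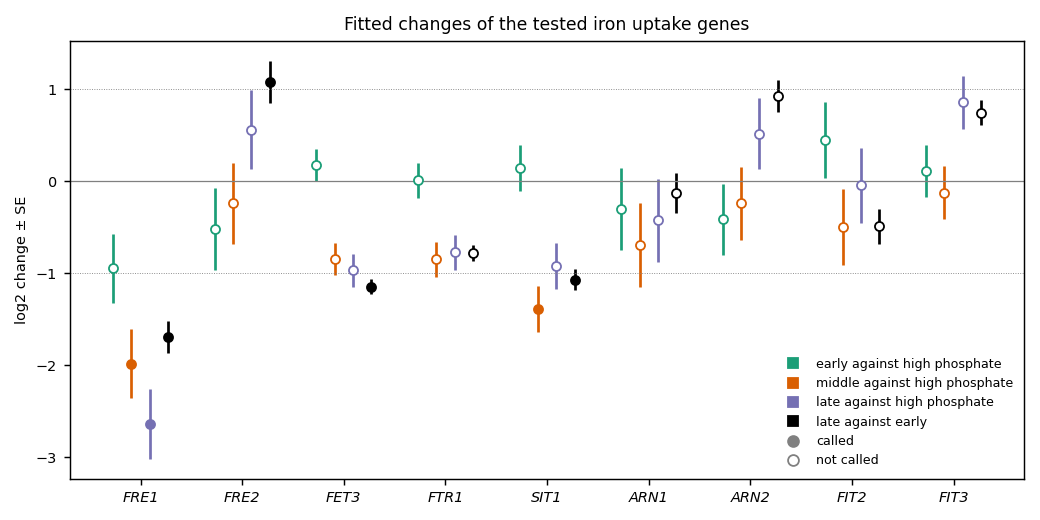
Fitted log2 changes with their standard errors for the 9 tested genes, with filled points for called changes. FRE1 and SIT1 are called in the middle window and FRE1 in the late one against high phosphate. Late against early, FRE1, FET3 and SIT1 are called lower and FRE2 higher.

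The oxidase gene of high-affinity iron uptake fell and the permease gene changed over time, and in both the step came between 105 and 135 min. FET3 (YMR058W, chromosome XIII, 388822 to 390732, plus strand) encodes the multicopper oxidase and stood at 354 RPM at 0 min. Its libraries ranged from 331 to 465 RPM early (median 420), from 165 to 227 in the middle (median 196) and from 159 to 225 late (median 166). Every late value lay below every early one, as was so for 6.51% of all genes.

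FET3 fell by 1.15 on the log2 scale from the early to the late window (SE 0.08, limma adjusted p = 1.11e-13). Against high phosphate its log2 change was -0.85 in the middle (SE 0.18) and -0.97 late (SE 0.18, limma adjusted p = 4.2e-05), under the size needed for a call. It passed late when 300 or 330 min was left out in turn, and the change was -1.39 when each library was centred on its median gene.

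FTR1 (YER145C, chromosome V, 460526 to 461740, minus strand), the permease that works with Fet3, had 414 RPM at 0 min. Its values ran from 286 to 479 RPM early (median 429), from 186 to 275 in the middle (median 240) and from 160 to 301 late (median 249). The lowest early library was 120 min and the highest late one was 300 min, so the windows overlapped.

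The log2 change of FTR1 late against early was -0.78 (SE 0.09, limma adjusted p = 2.02e-09), a difference beyond the scatter but under the size for a call, and its fitted range of 1.14 passed. Centred on the library median, FTR1 was called lower late against early (-1.28) and late against high phosphate (-1.20). The early window against high phosphate gave 0.18 for FET3 and 0.01 for FTR1, neither of which passed.

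Siderophore transporter genes did not move as a block. SIT1 (YEL065W, chromosome V, 27657 to 29543, plus strand), which encodes a transporter of ferrioxamine and related siderophores, was at 153 RPM at 0 min. It reached 221 RPM at 30 min, and its early libraries spanned 95.4 to 221 RPM (median 189). The middle libraries lay between 48.3 and 75.2 RPM (median 57.7).

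In the late window SIT1 was at 57.3 to 128 RPM (median 76.5), with 345 min as the high value, so late and early libraries overlapped. SIT1 fell by 1.39 on the log2 scale from high phosphate to the middle window (SE 0.25, limma adjusted p = 2.2e-04) and by 1.07 from the early to the late window (SE 0.11, limma adjusted p = 1.29e-09). Late against high phosphate it stood at -0.92 (SE 0.25), under the size for a call. It passed without 345 min, at -1.03 without the libraries at 210 and 345 min together, and at -1.35 with libraries centred on their median.

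ARN1 and ARN2, which encode transporters of ferrichrome-type and triacetylfusarinine siderophores, were low throughout. ARN1 (YHL040C, chromosome VIII, 19088 to 20971, minus strand) was listed in 20 libraries, at 16.3 RPM at 0 min and 6.39 to 18.5 RPM without phosphate. Its windows overlapped and no comparison passed, with a log2 change late against early of -0.12 (SE 0.22, limma adjusted p = 0.605).

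ARN2 (YHL047C, chromosome VIII, 8351 to 10213, minus strand) was listed in 23 libraries, with 16.3 RPM at 0 min. It was at 9.12 to 17.9 RPM early (median 11.5) and 17.5 to 38.7 RPM late (median 19.9), and the windows overlapped at their edges. Its log2 change late against early was 0.93 (SE 0.18, limma adjusted p = 3.24e-05), which missed the size for a call, and it was 0.43 with libraries centred on their median. It passed without 45 or 360 min, and its change over time (fitted range 1.18, limma adjusted p = 5.09e-04) was not called without 345 min.

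Of the ferrireductase genes, FRE1 fell from the early to the late window and FRE2 rose, a rise that was not called with libraries centred on their median. FRE1 (YLR214W, chromosome XII, 568567 to 570627, plus strand) encodes a reductase of both iron and copper and is also known as a target of Mac1, the copper-sensing activator. It had 83.8 RPM at 0 min, 165 reads, and 33.6 RPM in the next library at 15 min. Early libraries ranged from 29.0 to 58.9 RPM (median 44.9), middle ones from 15.5 to 33.2 (median 23.8) and late ones from 7.33 to 26.4 (median 13.3), with 210 and 345 min blank. The late libraries all lay below the early ones, the blank at 345 min included, as was so for 6.51% of all genes.

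FRE1 fell by 1.99 on the log2 scale from high phosphate to the middle window (SE 0.38, limma adjusted p = 3.7e-04). In the late window it fell by 2.64 (SE 0.38, limma adjusted p = 1.6e-06). The fall from early to late was 1.69 (SE 0.18, limma adjusted p = 1.82e-09). The difference between 0 min and the early window, -0.95 (SE 0.37, limma adjusted p = 0.507), did not pass.

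CTR1, which encodes the high-affinity copper transporter and is another known Mac1 target, had 53.9 RPM at 0 min and geometric means of 21.4, 16.0 and 12.2 RPM in the early, middle and late windows. It fell by 2.14 on the log2 scale late against high phosphate (SE 0.37, limma adjusted p = 3.04e-05). It was named because it was the called copper gene that fell. CTR3, a further copper transporter gene under Mac1, was looked at after its values had been seen. It stood at 11.7 RPM at 0 min and 11.9 RPM late, a log2 change of 0.04 (SE 0.34, limma adjusted p = 0.93) that did not pass. CTR3 was listed in 22 libraries, and the late libraries listed no value under 6.67 RPM, so CTR3 stood near the floor. FRE7, also in the copper list, was listed in 0 libraries. A link of CTR1 or CTR3 with FRE1 was not tested.

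FRE2 (YKL220C, chromosome XI, 9091 to 11226, minus strand), a reductase of ferric siderophores, was listed in 19 libraries with 10 to 41 reads. It stood at 10.7 RPM at 0 min, 5.08 to 11.6 RPM early (median 7.24) and 12.3 to 19.7 RPM late (median 16.7). Each listed late value lay above each early one, as in 36.1% of all genes.

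FRE2 rose by 1.08 on the log2 scale from the early to the late window (SE 0.23, limma adjusted p = 1.73e-04). The rise was 0.57 with libraries centred on their median and 0.50 when the ribosomal protein genes were kept out of the total, neither of which was called, and 0.96 with weights from reads. It also missed the call without the libraries at 15 and 30 min (0.89), and without 30, 75 or 90 min in turn. Against high phosphate the late change was 0.56 (SE 0.43, limma adjusted p = 0.289).

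Among the cell wall mannoprotein genes, FIT2 (YOR382W, chromosome XV, 1059531 to 1059992, plus strand) was at 41.2 RPM at 0 min and 39.1 at 15 min. It was then at 89.6, 92.0, 81.9 and 64.5 RPM at 30, 45, 60 and 75 min. It was lowest at 150 min with 16.0 RPM, and the late libraries lay between 28.7 and 50.8 RPM (median 41.8). The highest 4 values thus came from consecutive early libraries, and the mean of the early window was not called against high phosphate (log2 change 0.44, SE 0.41, limma adjusted p = 0.776). Late against early its log2 change was -0.49 (SE 0.19, limma adjusted p = 0.0182), -0.99 with libraries centred on their median and -1.07, called lower, when scaled without ribosomal protein genes. A change over time was called for FIT2, with a fitted range of 1.48 (limma adjusted p = 5.75e-04).

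FIT3 (YOR383C, chromosome XV, 1060441 to 1061055, minus strand) had 21.3 RPM at 0 min, 18.8 to 32.1 RPM early (median 24.1), 13.1 to 28.4 in the middle (median 20.5) and 29.8 to 44.9 late (median 36.9). Of the 7 listed late libraries all but the lowest lay above every early one, and 345 min was blank, which places it under 24.2 RPM. The log2 change of FIT3 late against early was 0.75 (SE 0.14, limma adjusted p = 1.77e-05) and 0.26 with libraries centred on their median, and neither reached the size for a call.

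FIT1 (YDR534C, chromosome IV, 1503314 to 1504900, minus strand) was listed in 2 libraries, at 5.37 RPM (13 reads) at 30 min and 4.32 RPM (18 reads) at 165 min, and could not be tested. FIT2 and FIT3 lie end to end on opposite strands with 448 bases between them, with the strand setting of the counting not given in the sources used here. No gene of the set overlapped another annotated gene, and none carried fractional reads that would come from reads divided between similar genes.

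Ratios within a library do not depend on its scaling, but its depth decides which values are listed. The 6 ratios between genes of like role that could be formed without FIT1 were compared. The comparison was chosen after the values had been seen, so its p-values describe these libraries and are no independent evidence. The permutation also treats time points of a single course as exchangeable, although ratios moved within windows. The FIT2 to FIT3 log2 ratio, for example, went from 2.21 at 30 min to 0.50 at 120 min. The FRE1 to FRE2 ratio had a median of 5.29 in 6 early libraries and 1.00 in 7 late ones, a difference of -2.72 on the log2 scale (two-sided exact permutation p = 0.00117, adjusted over the 6 ratios 0.00175). The FET3 to FTR1 ratio went from a median of 0.969 to 0.746, a log2 difference of -0.41 (n = 8 and 8, two-sided exact permutation p = 0.00295, adjusted 0.00333). Both genes stood lower late than early, FET3 by the larger amount.

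The SIT1 to ARN2 ratio went from a median of 14.0 to 3.59, a log2 difference of -2.07, with no overlap between the windows (n = 8 and 8, two-sided exact permutation p = 1.55e-04, the smallest this design can give, adjusted 9.32e-04). SIT1 to ARN1 went from 12.2 to 6.07, a log2 difference of -1.07 (n = 8 and 6, two-sided exact permutation p = 6.66e-04, adjusted 0.00133). ARN1 to ARN2 went from 1.11 to 0.509, a log2 difference of -0.98 (n = 8 and 6, two-sided exact permutation p = 0.00333, adjusted 0.00333), and these windows overlapped. The neighbours FIT2 and FIT3 went from a ratio of 2.30 to 0.974, a log2 difference of -1.29 (n = 8 and 7, two-sided exact permutation p = 3.11e-04, adjusted 9.32e-04). Libraries with a blank in either gene were left out, and these omissions worked both ways. At 345 min FIT2 had 50.8 RPM and FIT3 under 24.2, a ratio above every listed late one. At 285 min ARN1 was under 10.3 RPM and ARN2 at 22.7, a ratio below the late median. Ratios among SIT1, ARN1 and ARN2 share genes and are not separate results.

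**Figure D4:**
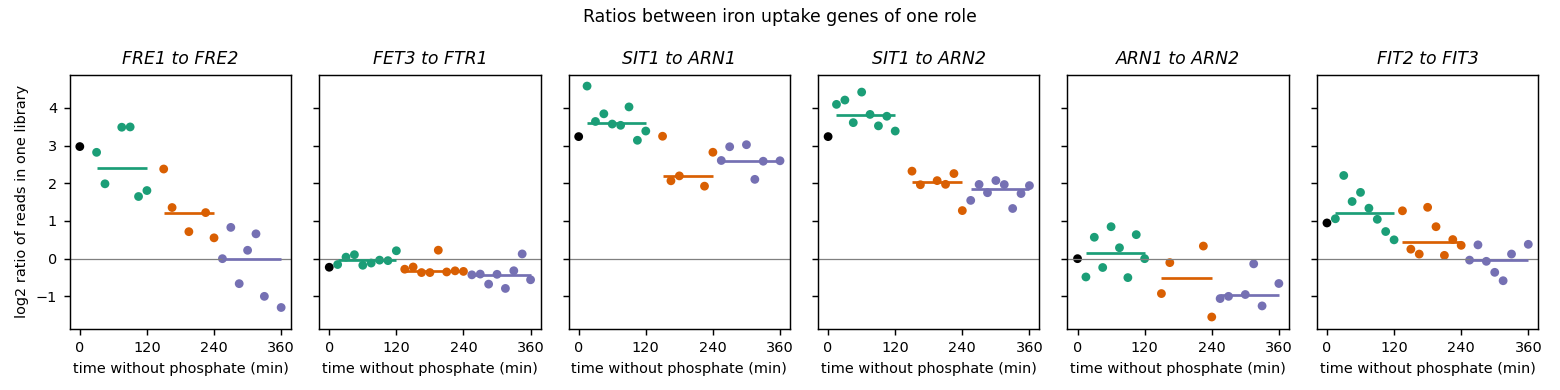
Log2 ratio of reads in the same library for 6 pairs of genes with like roles, against minutes without phosphate, 1 point per library, with horizontal lines at the window medians. In each pair the gene with the lower log2 change from early to late is written first, so all 6 differences are negative by that order. Their sizes run from -0.41 for FET3 to FTR1 to -2.72 for FRE1 to FRE2.

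The onset of a change was taken as the first of 3 consecutive listed libraries at least 1 log2 unit from the 0 min value. It was 105 min for FRE1, 135 min for SIT1 and 255 min for FET3, all downward. FET3 was already at -1.10 and -1.07 at 210 and 225 min, but at -0.90 at 240 min. No other gene with a 0 min value had an onset, and FIT1, blank at 0 min, could not be read. FIT2 came close, with 1.12, 1.16 and 0.99 at 30, 45 and 60 min. With 0.58 as the size, FRE1 began at 15 min, SIT1 at 120 min, FET3 and FTR1 at 135 min and ARN1 at 240 min, all downward. FIT2 began at 30 min and FIT3 at 270 min, both upward. An onset need not last. FRE1 was back inside this size at 75 min (-0.51) and 90 min (-0.55). The ARN1 onset rests on 12 to 13 reads per library, and ARN1 was at 0.12 at 315 min.

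Across the 25 libraries the log2 levels of FET3 and FTR1 had a Pearson r of 0.90, FET3 and SIT1 0.86, and FTR1 and SIT1 0.82. FIT2 had r from 0.54 with FTR1 to 0.75 with SIT1. The points share their library, its depth and the course of time, so these values are descriptions. The mean profile of these 4 genes, which were listed in every library, was compared with the other genes among the 4334 that had a value throughout. Most like it were CUP1-1 and CUP1-2, the copper metallothionein copies with identical values (r = 0.82), then the amino acid permease gene BAP2 (0.77), YPR170W-B (0.76), the sphingolipid gene IPT1 (0.76), the nuclear transport gene KAP122 (0.76), YPR170W-A (0.75) and the riboflavin synthesis gene RIB4 (0.74). By Spearman's rho 1 of these 8, KAP122, was still among the nearest 8. Taken singly, FET3 was nearest to CUP1-1 (r = 0.88), FTR1 to the ammonium export gene ATO3 (0.84), SIT1 to CUP1-2 (0.79) and FIT2 to the drug pump gene SNQ2 (0.69). The CUP1 copies share their values, so which copy is named is arbitrary. Spearman's rho with them was 0.84 for FET3 and 0.60 for SIT1. By rho ATO3 was still the nearest to FTR1, and SNQ2 was not the nearest to FIT2.

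Other genes of iron control were read beside these. Of 18 other known targets of Aft1 or its paralog Aft2, 15 were tested, and 3 rose and 0 fell late against high phosphate, a share near the 21.1% higher among all genes, with a median log2 change of 0.41, equal to that of all genes. These were ENB1, which encodes the enterobactin transporter (1.30, SE 0.26), TIS11, which encodes an RNA-binding protein of iron sparing (1.42, SE 0.43), and ATX1, which encodes the copper chaperone that serves Fet3 (1.10, SE 0.18). TIS11 had 12 reads at 0 min, near the floor, and was listed in 17 libraries. With libraries centred on their median 0 of the 15 were called by limma and 3 had an unadjusted p under 0.05.

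Of 7 tested iron regulators AFT2 rose late against high phosphate, by 1.67 (SE 0.34, limma adjusted p = 2.94e-04), from 5.59 RPM at 0 min to a geometric mean of 18.4 RPM late. This was 1 gene of 7, where 21.1% of all genes were called higher. AFT2 had 11 reads at 0 min, near the floor, and was listed in 17 libraries. AFT1, which was looked at because it names the regulon, was at 44.7 RPM at 0 min and 44.7, 42.7 and 52.1 RPM in the 3 windows. Its log2 change of 0.17 late against high phosphate (SE 0.29, limma adjusted p = 0.64) did not pass, and transcript levels do not show where the protein was. In the copper list, read against 21.1% higher and 6.85% lower among all genes, 1 of 9 tested genes rose, the metallothionein gene CRS5 (2.29, SE 0.27), and 1 fell, CTR1.

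**Figure D5:**
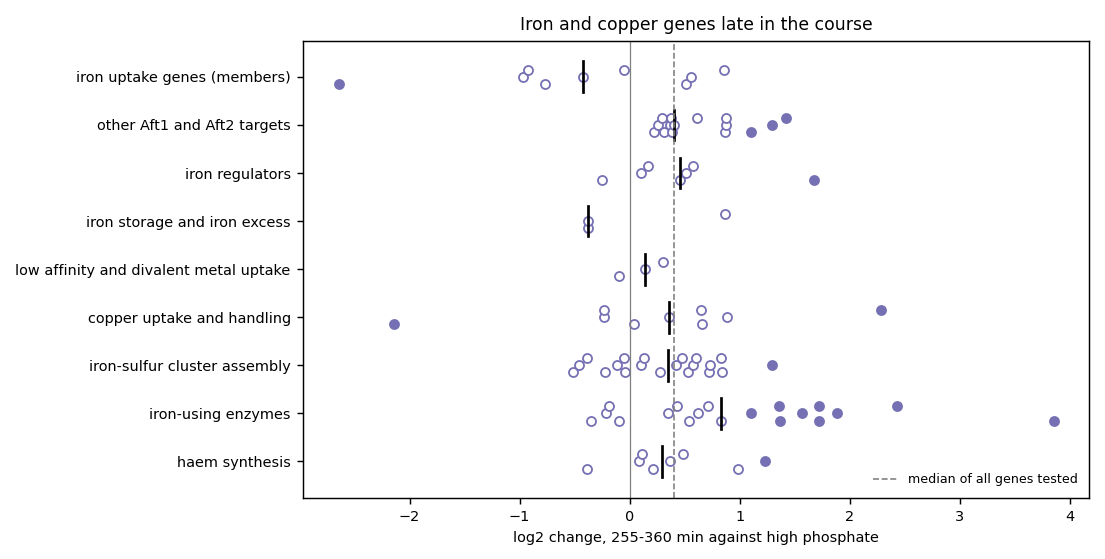
Log2 change in the late window against high phosphate for the tested genes of each list, 1 point per gene, filled where called. Short vertical lines mark list medians and the dashed line marks the median of all genes at 0.41. The iron uptake genes have a median of -0.43, and the other Aft1 and Aft2 targets lie around the dashed line.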

How the data were processed

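The deposited values are log2 of RPM in 1 matrix, made by the authors. Per the submitters' processing notes, Bowtie and genome build R64 were used. Sources used here do not name the counting program or strand setting. The antilogs of each column sum to 1000000. Taking the lowest value listed in a library as 10 reads, 96.7% of low values came within 0.01 of whole reads, which gave the depth. Values below it are blank and were left missing.

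Of 6650 named genes, 5298 were tested, listed in at least 13 libraries and at least 3 of 8 in each window; 5230 had a 0 min value. The fit (limma 3.58.1 with a variance trend, R 4.3.3) held a 0 min indicator and a 4-parameter natural cubic spline over time. The 0 min group has 1 library, assumed to vary like the others. The median residual SD was 0.238 and the median lag-1 autocorrelation -0.13. The fit was tested on simulated data. A count test was not run, because the reads under 10 are missing. Window levels are medians or geometric means of listed libraries.

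Named genes are the 10 members, up to 4 called genes per list with the largest statistic, and the nearest profiles. Members and lists were chosen with earlier results of these data known. Ratio tests used SciPy 1.17.1 and figures matplotlib 3.10.9 in Python 3.11.15. Sequences are from RefSeq, build R64. Protein sequences were not used here.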

Additional observations from a re-analysis of the deposited data

Results flagged for a closer look

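In 27 sets of 8 values or fewer, a window of a gene each, 2 held a library far from the others, where chance gives about 1 in 20. FTR1 stood at 286 RPM at 120 min, and the nearest early library had 400.2 RPM. The 120 min library is the last of its window, and FTR1 was at 275 RPM in the next one. SIT1 stood at 128 RPM at 345 min, and the nearest late library had 83.3 RPM. The 345 min library is the shallowest, and FTR1 had its lowest value of all (160 RPM) in it. The part of depth in these values was not tested.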

How the results depend on the processing

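With libraries centred on their median, or scaled without ribosomal protein genes, 4 genes were called in the middle and 4 in the late window (FET3, FRE1, FTR1 and SIT1, all lower), where 6.41% and 11.8% of all genes were called lower after centring and 7.61% and 13.5% after the other scaling. With a minimum log2 change of 0.58 the counts were 4 in the middle, 5 late and 7 late against early, where 22.0%, 46.2% and 51.8% of all genes were called. Testing only genes listed in all libraries drops 5 of the 9 genes by construction and gave 1, 0, 2 and, for change over time, 4 calls. Of all genes so tested 11.4%, 28%, 25.6% and 40.1% were called. A spline with 3 degrees of freedom gave 3 late calls, leaving out the 2 shallowest libraries gave 2, and window means gave 4 calls for change over time. In these 3 settings 28%, 27.5% and 25.5% of all genes were called. Leaving out each time point in turn gave 0 early calls, 2 in the middle, 1 to 2 late, 3 to 5 late against early and 7 to 8 for change over time. The shares of all genes called were 0.0765% to 0.191%, 9.73% to 12.2%, 27.2% to 29.1%, 25.5% to 27% and 41.3% to 47.7%. Signs turned for values near 0: FTR1 early was -0.054 with 3 degrees of freedom and -0.0091 to 0.036 with a time point left out (negative without 75 min), FIT3 in the middle was 0.050 with 3 degrees of freedom, ARN2 late was -0.013 when scaled without ribosomal protein genes, and FIT2 late was -0.087 to 0.027 with a time point left out (positive without 300 or 315 min). The cause was not tested. The 6 ratios kept their direction and an unadjusted exact permutation p under 0.05 with each time point left out, an alternative added after seeing the data, as was leaving out the 2 shallowest libraries or the 15 and 30 min libraries. No paired analysis was possible because each time point has a single library. At their lowest listed values FRE1, FRE2, ARN1, ARN2 and FIT1 had 10 to 13 reads.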

Other observations

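Of 19 tested genes for enzymes that use iron, 9 rose and 0 fell late against high phosphate by limma, where 21.1% of all genes rose and 6.85% fell, and the other 10 did not pass. The median log2 change of the 19 was 0.83, against 0.41 for all genes. With libraries centred on their median 6 rose, against 10.8% of all genes. The called genes include the sterol enzyme gene ERG25 (1.72, SE 0.13), the aconitase gene ACO1 (1.88, SE 0.19), the ribonucleotide reductase gene RNR2 (1.36, SE 0.15) and the cytochrome c1 gene CYT1 (1.72, SE 0.20). In the list of iron-sulfur cluster assembly 1 of 20 tested genes was called higher, JAC1 (1.29, SE 0.27), and in haem synthesis 1 of 8, HEM14 (1.23, SE 0.22), both under the share of 21.1% among all genes. Both missed the call with libraries centred on their median. Of 3 genes of iron storage and 3 of low-affinity metal uptake, 0 were called by limma late against high phosphate, with 1 and 0 at an unadjusted p under 0.05.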
